A study of Homo sapiens with 6 samples.

Results

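A set of 10 genes that make, break down, regulate or carry polyamines were followed across the RNA sequencing of MOLM-13 cells. They were chosen by name, with earlier results of these data known (ODC1, AMD1, SRM, SMS, OAZ1, AZIN1, SAT1, SMOX, ATP13A2 and ATP13A3). All 10 were found among the 58381 gene identifiers of the count table and were among the 17219 genes that passed the filter on low counts. MOLM-13 is an established human acute myeloid leukaemia line with an MLL-AF9 fusion. The series compared 2 groups of these cells, both grown in RPMI medium with serum and antibiotics. The DB2115 group received 5 µM of a compound that the labels name only by this code, and the vehicle group received 0.001% DMSO. Both were harvested after 20 h. Neither group carries a genetic change of its own.

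Polyamines are the small cations putrescine, spermidine and spermine, which bind nucleic acids and are needed for growth and for making hypusine, a modified residue of the translation factor EIF5A. Ornithine decarboxylase makes putrescine, and spermidine synthase and spermine synthase then add aminopropyl groups that come from decarboxylated S-adenosylmethionine. Acetylation and oxidation run the pathway backwards, an antizyme holds ornithine decarboxylase in check, and ATPases of the P5B type move polyamines out of endosomes and lysosomes into the cytosol.

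Of the 3 libraries that the labels name in each group, the table holds 3 columns, but the third was close to the sum of the other 2, within 1% in 98.5% of genes with at least 200 counts in either group. It was left out, and n = 2 libraries per group, called A and B after their columns, remained. Their totals ran from 36547900 to 42446253 counts, so that 3 counts in a library were worth between 0.0707 and 0.0821 CPM (counts per 1000000 counts of the library). Separate cultures are not mentioned in the labels, so the spread behind each p-value may be technical. The 8 myeloid leukaemia markers summed to between 838 and 847 CPM in vehicle and between 977 and 1005 CPM with DB2115, although ANPEP had only 12 and 5 counts in vehicle. Within this sum FLT3 fell (log2 fold change -1.63) and MPO rose (2.46). Of other lineages, the 3 B-cell markers summed to 1.42 and 1.53 CPM in vehicle and 12.9 and 14.2 CPM with DB2115, and the 3 stromal markers to 10.6 and 4.50 against 46.1 and 58.6 CPM. T-cell markers reached at most 1.32 CPM, with CD2 at 0 counts, and epithelial markers reached at most 0.547 CPM in a library. Of the T-cell markers, CD3E had 1 and 0 counts in vehicle and 46 and 10 with DB2115, and CD3D 0 and 0 against 7 and 4. Mitochondrial genes held 4.91% and 5.64% of counts in vehicle and 7.65% and 6.93% with DB2115. The part of these shifts in the results was not tested, except that the fit was repeated without mitochondrial genes, which changed no call on the 10 genes.

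Of the 4 synthesis genes 3 fell, and both breakdown genes rose. Transcripts of ODC1, AMD1 and SRM, the enzymes that lead to spermidine, fell 2.23-fold, 2.03-fold and 6.13-fold with DB2115. Those of SAT1, which acetylates spermidine and spermine, and of SMOX, which oxidises spermine, rose 8.56-fold and 3.70-fold. Among the others, ATP13A2 rose, ATP13A3 and OAZ1 fell by less than 2-fold, SMS was called higher by a small margin, and AZIN1 was not called. In all, 4 of the 10 genes were called higher and 5 lower by edgeR's quasi-likelihood test (Benjamini-Hochberg adjusted p under 0.05 over all genes tested). The background is high, because 64.1% of all genes tested were called, 32.7% higher and 31.3% lower. The count of called genes is therefore not a result about this group. The DB2115 libraries lay entirely above the vehicle libraries for 5 of the 10 genes and entirely below for 5, so none overlapped, beside 42% and 39.4% of all genes tested, together 81.3%. Of all genes tested, 17.5% were called at least 2-fold higher and 9.53% at least 2-fold lower, and 3 and 3 of the 10 were, a difference that was not tested. AMD1 and ATP13A2 are among these 6 but did not reach 2-fold under every setting, as given with their values. OAZ1 is not among them, but was more than 2-fold lower (log2 fold change -1.05) once trends of counts with transcript GC content and length were removed. The median log2 fold change of the 10, which moved both ways, was -0.16, beside 0.03 for all genes tested. The order turned with the trends of counts with transcript GC content and length removed, to -0.0525 beside -0.17.

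**Figure D1:**
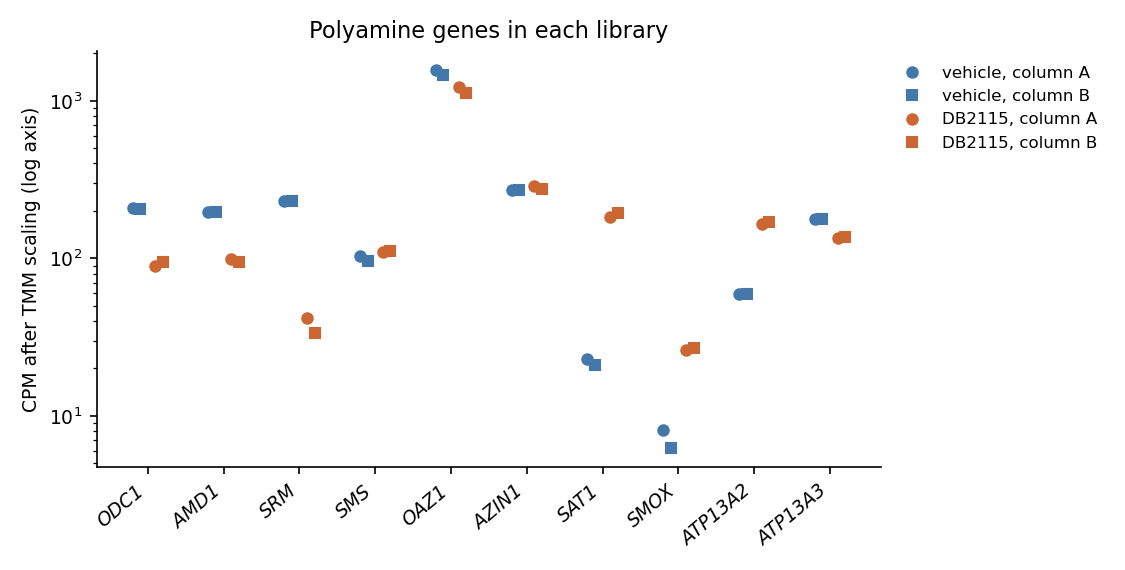
Level of each of the 10 polyamine genes in each library, in CPM after TMM scaling on a log axis, with vehicle in blue, DB2115 in orange, circles for column A and squares for column B. ODC1, AMD1 and SRM lie lower with DB2115 and SAT1, SMOX and ATP13A2 higher, whereas the libraries of SMS and AZIN1 lie close together in both groups.

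The start regions of SAT1, SRM, ATP13A2 and ODC1, the 4 genes with the largest fold changes among those with a window, are shown to let the letters be read beside the values. RefSeq windows on GRCh38.p14 ran from 250 bases before to 50 bases after an annotated start. Windows of 8 of the 10 genes, not of SMOX or AZIN1, were searched. These were 11 windows, since ODC1 and AMD1 have more than 1 start. Each is written from 5′ to 3′ on the gene's strand. Capitals mark either CACGTG, the canonical E-box that MYC with MAX binds, or GAGGAA or its reverse complement, the core of a PU.1 site. PU.1 is named in the title of the series, and ODC1 and SRM are textbook MYC targets.
SRM, chr1:11059969-11060268, minus strand: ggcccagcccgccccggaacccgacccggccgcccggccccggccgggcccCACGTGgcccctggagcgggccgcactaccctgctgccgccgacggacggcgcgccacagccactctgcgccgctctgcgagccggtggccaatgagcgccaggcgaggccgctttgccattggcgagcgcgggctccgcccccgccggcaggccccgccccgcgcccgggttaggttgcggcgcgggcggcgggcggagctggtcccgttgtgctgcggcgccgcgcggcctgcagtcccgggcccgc
ODC1, downstream start, chr2:10447963-10448262, minus strand: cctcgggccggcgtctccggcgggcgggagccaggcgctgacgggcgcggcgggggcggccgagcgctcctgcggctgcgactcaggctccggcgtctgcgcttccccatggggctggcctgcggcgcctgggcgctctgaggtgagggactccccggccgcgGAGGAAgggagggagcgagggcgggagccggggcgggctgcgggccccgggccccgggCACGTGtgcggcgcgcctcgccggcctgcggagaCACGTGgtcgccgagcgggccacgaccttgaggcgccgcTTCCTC
ODC1, upstream start, chr2:10448278-10448577, minus strand: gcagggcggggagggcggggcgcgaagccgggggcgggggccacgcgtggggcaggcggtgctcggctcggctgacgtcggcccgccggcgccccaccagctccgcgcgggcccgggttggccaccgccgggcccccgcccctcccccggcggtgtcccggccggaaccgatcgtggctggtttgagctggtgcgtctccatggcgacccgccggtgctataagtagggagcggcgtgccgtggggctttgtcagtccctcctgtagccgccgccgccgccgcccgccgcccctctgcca
SAT1, chrX:23782923-23783222, plus strand: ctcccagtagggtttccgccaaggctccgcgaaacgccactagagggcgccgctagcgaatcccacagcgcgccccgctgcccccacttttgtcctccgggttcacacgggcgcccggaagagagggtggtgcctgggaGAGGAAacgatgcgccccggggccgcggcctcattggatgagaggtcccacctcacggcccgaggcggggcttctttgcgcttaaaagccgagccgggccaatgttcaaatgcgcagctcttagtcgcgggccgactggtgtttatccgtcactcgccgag
ATP13A2, chr1:17011879-17012178, minus strand: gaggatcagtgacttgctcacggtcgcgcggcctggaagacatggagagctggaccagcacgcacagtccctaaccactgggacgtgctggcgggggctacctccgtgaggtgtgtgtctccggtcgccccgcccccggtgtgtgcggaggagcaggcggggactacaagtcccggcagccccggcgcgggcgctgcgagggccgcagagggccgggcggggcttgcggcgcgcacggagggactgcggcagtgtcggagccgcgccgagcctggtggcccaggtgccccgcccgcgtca
CACGTG occurred once in the SRM window, starting 199 bases before the start site, and 2 times in the window of the downstream ODC1 start, 29 bases before that start and at base 6 after it. It was found in 7.26% of the 35116 windows of all genes, and in none of the other windows of the 8 genes. The ATP13A2 window held neither motif. GAGGAA, searched on both strands, occurred 2 times at the downstream ODC1 start (87 bases before and, on the other strand, at base 45 after it), once in the SAT1 window 111 bases before the start, and once in that of SMS, 73 bases before. The share of all windows with GAGGAA was 27.9%, and the motifs do not overlap in these windows. Of 11285 tested genes with a window, 36.4% were called lower, and of the 1414 with CACGTG in it, 40.5%. Of the 3870 with GAGGAA, 34.0% were called lower. The shares called higher were 34.1% of all with a window, 29.3% with CACGTG and 36.5% with GAGGAA. These differences were not tested. MYC itself stood at 564 and 543 CPM in the vehicle libraries and at 24.3 and 19.4 CPM with DB2115. SPI1, the gene of PU.1, stood at 187 and 177 CPM in vehicle and at 210 and 171 CPM with DB2115. It was not called (log2 fold change 0.06, adjusted p = 0.526, edgeR). A part of either factor in the changes of the 10 genes was not tested. A match describes letters in these windows only, and no binding was measured.

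Synthesis is described first. SRM, spermidine synthase (ENSG00000116649.9, chromosome 1, 11054584 to 11060024, minus strand), was at 231 and 232 CPM in vehicle libraries A and B and at 41.9 and 33.8 CPM in DB2115 libraries A and B. All vehicle values lay far above both DB2115 values, and the DB2115 libraries differed from each other more than the vehicle libraries did. The log2 fold change was -2.62 (edgeR, SE 0.09, adjusted p = 7.42e-11), 6.13-fold lower, from 232 ± 0.865 to 37.8 ± 5.72 CPM (SD, n = 2). This was the largest fall of the 10, and 0.9% of all genes tested had a lower fold change. With the GC content and length trends removed, the log2 fold change was -3.21.

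ODC1, ornithine decarboxylase, the first and usually limiting enzyme (ENSG00000115758.12, chromosome 2, 10439968 to 10448504, minus strand), stood at 208 and 204 CPM in vehicle and at 90.0 and 94.8 CPM with DB2115. The groups did not overlap. It fell with a log2 fold change of -1.16 (edgeR, SE 0.06, adjusted p = 3.3e-09), 2.23-fold lower. AMD1, S-adenosylmethionine decarboxylase, which supplies the aminopropyl groups (ENSG00000123505.15, chromosome 6, 110874770 to 110895713, plus strand), stood at 195 and 197 CPM in vehicle and 99.4 and 94.5 CPM with DB2115. Its log2 fold change was -1.02 (edgeR, SE 0.06, adjusted p = 1.04e-08), 2.03-fold lower. It was less than 2-fold lower with upper-quartile factors and total counts (both -0.92), under a filter of 1 CPM in 3 libraries (-0.94) and without DB2115 library B (-0.99). With GC content and length trends removed, AMD1 was at -0.75 and ODC1 at -1.45. Both enzymes are known to be controlled strongly after transcription, so these values describe their RNA and not their activity.

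SMS, spermine synthase (ENSG00000102172.15, chromosome X, 21940573 to 21994835, plus strand), uses the same aminopropyl donor to make spermine from spermidine. It had 103 and 95.6 CPM in vehicle and 110 and 111 CPM with DB2115. The DB2115 values lay just above the vehicle values, by about as much as the vehicle libraries differed from each other. The call of a rise (log2 fold change 0.15, 95% interval 0.02 to 0.29, adjusted p = 0.0476, edgeR) was lost without any 1 of the 4 libraries, with adjusted p from 0.0768 to 0.418, and with DESeq2 (adjusted p = 0.0986). SMS therefore did not share the fall of the other synthesis genes, and a rise was not established. Within a library, SRM had 2.24 and 2.43 counts per count of SMS in vehicle and 0.38 and 0.305 with DB2115.

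Summed over the 4 synthesis genes, the level went from 734 ± 5.47 to 338 ± 5.40 CPM (SD, n = 2), and for ODC1, AMD1 and SRM alone from 634 ± 0.194 to 227 ± 5.78 CPM.

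Catabolism moved the other way. SAT1, spermidine/spermine acetyltransferase, whose products are exported or oxidised (ENSG00000130066.16, chromosome X, 23783173 to 23786226, plus strand), was at 22.9 and 21.1 CPM in vehicle and at 184 and 193 CPM with DB2115. Every DB2115 value was several times every vehicle value. The log2 fold change was 3.10 (edgeR, SE 0.07, adjusted p = 4.64e-12), from 22.0 ± 1.25 to 188 ± 6.37 CPM (SD, n = 2). Among all genes tested, 6.04% had a larger change in either direction. SAT1 is known to make a second, non-productive splice form when polyamines are scarce, and gene-level counts do not separate the forms.

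SMOX, spermine oxidase, which turns spermine back into spermidine with release of hydrogen peroxide (ENSG00000088826.17, chromosome 20, 4120980 to 4187747, plus strand), was the lowest of the 10 genes, also per length of exon. It had 8.14 and 6.25 CPM in vehicle and 26.2 and 26.8 CPM with DB2115, without overlap. It rose with a log2 fold change of 1.89 (edgeR, SE 0.12, adjusted p = 1.8e-08), 3.70-fold. The log2 fold change was 1.26, a smaller rise, with the GC content and length trends removed. SAT1 and SMOX together went from 29.2 ± 2.59 to 215 ± 6.79 CPM.

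**Figure D2:**
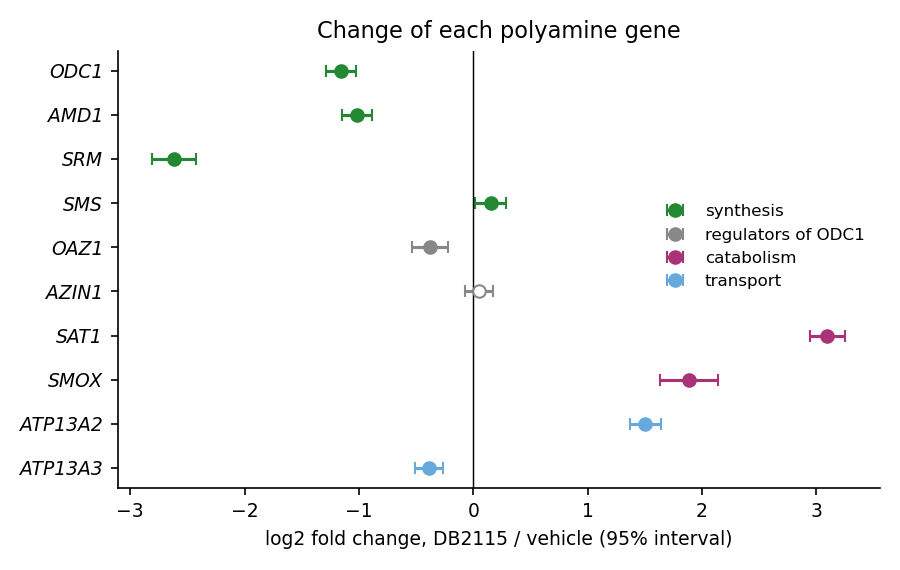
Log2 fold change of DB2115 over vehicle for each of the 10 genes, coloured by role, with 95% intervals from edgeR (n = 2 libraries per group), and an open circle where the gene was not called. The intervals of ODC1, AMD1 and SRM reach no higher than -0.889, those of SAT1, SMOX and ATP13A2 above 1.37, and that of AZIN1 spans 0.

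The regulators of ODC1 changed less than ODC1 itself. OAZ1, antizyme, which binds ornithine decarboxylase, sends it to the proteasome and lowers polyamine uptake (ENSG00000104904.12, chromosome 19, 2269509 to 2273490, plus strand), was the most abundant of the 10, also per length of exon. It stood at 1575 and 1461 CPM in vehicle and 1225 and 1114 CPM with DB2115. Libraries B were lower than libraries A in both groups, but the groups did not overlap. The log2 fold change was -0.38 (edgeR, SE 0.07, adjusted p = 0.000523), 1.30-fold lower, and -1.05 (adjusted p = 6.66e-09) with the GC content and length trends removed, so that its size, though not its direction, depended on that choice. Antizyme protein is made by a polyamine-stimulated frameshift, which RNA counts do not show.

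AZIN1, antizyme inhibitor, a relative of ornithine decarboxylase without its activity that binds antizyme (ENSG00000155096.13, chromosome 8, 102826357 to 102893864, minus strand), was at 273 and 270 CPM in vehicle and 287 and 275 CPM with DB2115. Its log2 fold change was 0.05 (95% interval -0.08 to 0.17, adjusted p = 0.476, edgeR), and no change was called. It was called higher with upper-quartile factors (0.14, adjusted p = 0.0382), with total counts (0.14, adjusted p = 0.0338) and under a filter of 1 CPM in at least 3 libraries (0.13, adjusted p = 0.0458).

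The 2 transport genes, both P5B-type ATPases, moved apart. ATP13A2, the lysosomal polyamine exporter whose loss causes a form of parkinsonism (ENSG00000159363.17, chromosome 1, 16985958 to 17011928, minus strand), had 59.0 and 59.2 CPM in vehicle and 165 and 171 CPM with DB2115. It rose 2.84-fold (log2 fold change 1.51, edgeR, SE 0.06, adjusted p = 3.67e-10). With GC content and length trends removed, the log2 fold change was 0.69 (adjusted p = 1.07e-07). ATP13A3, a relative linked to polyamine uptake (ENSG00000133657.15, chromosome 3, 194402672 to 194498364, minus strand), had 177 and 178 CPM in vehicle and 135 and 136 CPM with DB2115. It fell with a log2 fold change of -0.39 (edgeR, SE 0.06, adjusted p = 5.56e-05), 1.31-fold lower, and -0.18 (adjusted p = 0.0125) with those trends removed. The libraries of each group agreed closely for this pair of genes, and ATP13A3, with 3.005 and 2.999 counts per count of ATP13A2 in the vehicle libraries, had 0.821 and 0.794 with DB2115.

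**Figure D3:**
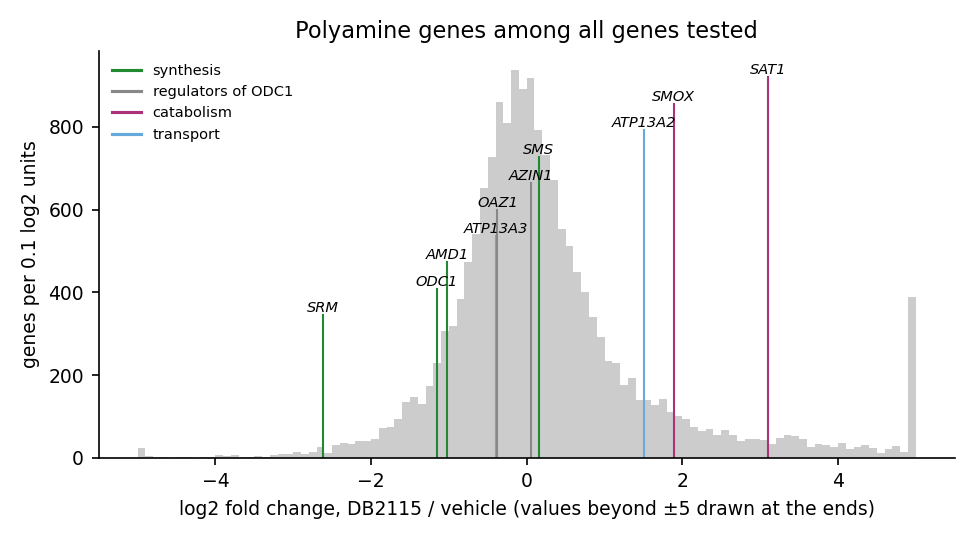
Distribution of the log2 fold change over the 17219 genes tested, with the 10 polyamine genes drawn as lines coloured by role (line height only separates the names). SRM lies in the lower tail and SAT1 in the upper tail, while SMS, AZIN1, OAZ1 and ATP13A3 lie in the central mass.

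Ratios between counts of 2 genes in the same library do not depend on how libraries are scaled, and 7 such pairs were formed. They can depend on the GC content and length trends, which were not removed from them. With those trends removed, the log2 fold changes of single genes moved by unlike amounts (OAZ1 from -0.38 to -1.05, ATP13A2 from 1.51 to 0.69). SAT1 had 0.11 and 0.104 counts per count of ODC1 in vehicle and 2.04 and 2.03 with DB2115, a 19.1-fold shift that turned the order of the genes around. SAT1 per SMOX went from 2.81 and 3.38 to 7.01 and 7.19. ODC1 per OAZ1 went from 0.132 and 0.14 to 0.0735 and 0.085, that is 1.72-fold lower, lower in both DB2115 libraries than in either vehicle library. AZIN1 per OAZ1 went from 0.173 and 0.184 to 0.234 and 0.246. AMD1 per ODC1 was 0.941 and 0.967 in vehicle and 1.10 and 0.997 with DB2115, a mean difference of 0.14 on the log2 scale with SDs of 0.03 and 0.10. None of the 7 ratios overlapped between groups. They were built from the 10 genes, none of which overlapped, beside 81.3% of all genes tested without overlap. The share for ratios of other genes was not computed, so this is not a result about these pairs. In an exact two-sided permutation test 2 libraries against 2 cannot go below p = 0.333, the value of each pair before and after Benjamini-Hochberg adjustment.

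**Figure D4:**
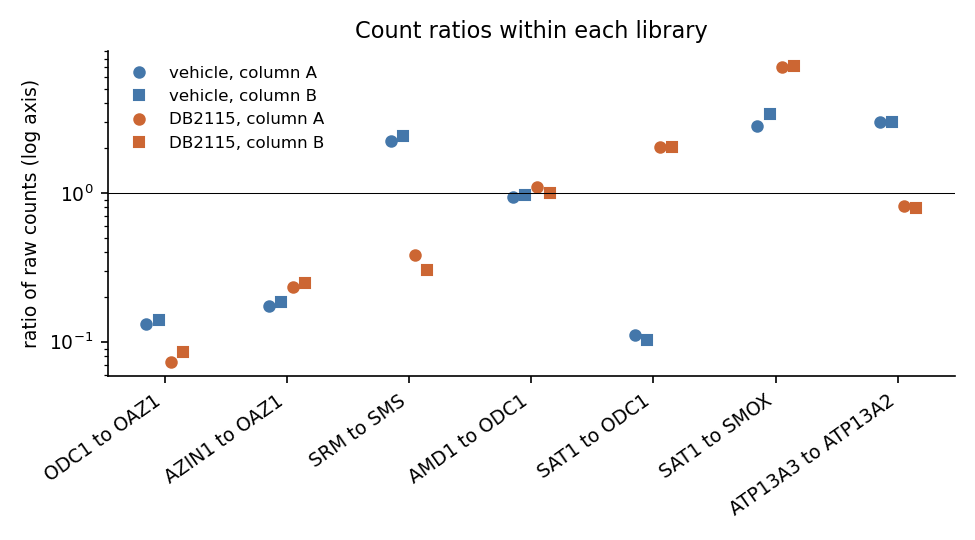
Ratio of raw counts of 2 polyamine genes within each library on a log axis, for 7 pairs, with vehicle in blue, DB2115 in orange, circles for column A and squares for column B. SAT1 to ODC1 crosses from about 0.1 to about 2, and SRM to SMS and ATP13A3 to ATP13A2 cross from above 1 to below 1.

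Levels of different genes were compared per kilobase of annotated exon (CPM per kb over the union of all isoforms, which is longer than the usual mRNA). In vehicle the order was OAZ1 (442 ± 23.5), SRM (122 ± 0.456), ODC1 (69.4 ± 0.842), SMS (46.0 ± 2.44), AZIN1 (42.2 ± 0.378) and AMD1 (28.0 ± 0.205), then ATP13A3, ATP13A2, SAT1 (8.82 ± 0.502) and SMOX (2.44 ± 0.455). With DB2115 it was OAZ1 (340 ± 22.8), SAT1 (75.4 ± 2.55), SMS (51.1 ± 0.177) and AZIN1 (43.7 ± 1.34), followed by ATP13A2 (31.9 ± 0.869) and ODC1 (31.1 ± 1.14), whose libraries overlapped, and by SRM (19.9 ± 3.01), AMD1, ATP13A3 and SMOX (9.001 ± 0.142). SAT1 thus moved from place 9 to place 2 of the 10, and SRM from place 2 to place 7.

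Genes that share exon bases or sequence with the 10 had few counts beside theirs. Whether strand was used in counting is not given, and OAZ1, AZIN1, ATP13A2 and ATP13A3 share exon bases with other genes. The largest of these had up to 195 counts in a library (JSRP1, opposite OAZ1) and up to 111 (LINC00884, opposite ATP13A3). Processed pseudogenes named for ODC1, AMD1 and SRM had at most 17 counts in a library.

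Beyond the 10, a list of 41 further genes of the pathway was described, of which 31 could be tested. Of these, 7 were called higher and 16 lower, beside 32.7% and 31.3% of all genes tested, together 64.1%. Their median log2 fold change was -0.48, beside 0.03 for all genes tested. Called lower were 4 of 9 tested genes of ornithine and arginine supply and 7 of 9 of the methionine cycle and salvage. So were 3 of 4 hypusine genes and 2 of 4 transporters, whereas both further tested genes listed under catabolism rose. The first 3 of these roles also held most of the genes tested, and differences between roles were not tested.

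In catabolism, PAOX, the oxidase that acts on acetylated polyamines, went from 1.08 and 0.702 to 2.66 and 2.56 CPM (log2 fold change 1.56, adjusted p = 0.000412, edgeR), and its log2 fold change was 0.92 with GC content and length trends removed. SAT2, listed here as a relative of SAT1, went from 1.28 and 0.944 to 4.40 and 4.15 CPM (1.95, adjusted p = 9.93e-06, edgeR). Whether SAT2 acts on polyamines was not tested. SATL1, the other relative, had no count. All 4 tested genes listed here under catabolism, SAT1 and SMOX included, were called higher with DB2115, beside 32.7% of all genes tested. The list was chosen with earlier results of these data known, and this count was not tested. PAOX and SAT2 had at most 45 counts in a vehicle library.

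Among the antizymes, OAZ2 rose from 42.4 and 39.7 to 57.6 and 56.1 CPM (log2 fold change 0.47, adjusted p = 4.98e-05, edgeR), against the direction of OAZ1, but it was not called with GC content and length trends removed (0.15, adjusted p = 0.0751). OAZ3, a testis form, was near 0.5 CPM and not called. AZIN2, the second antizyme inhibitor, had 0.199 and 1.94 CPM in vehicle and 0.391 and 0.894 with DB2115, overlapping values without a call. Its log2 fold change was -1.60 without vehicle library A, -1.48 without DB2115 library B and 1.65 without vehicle library B, so its direction rested on 1 library. Among the settings, it was called lower only in the first 2 of these fits, which leave 1 library in a group.

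Of 11 genes of ornithine and arginine supply, 9 were tested. Of these 4 fell and 1 rose, beside 31.3% of all genes tested called lower and 32.7% called higher. SLC7A1, the main cationic amino acid transporter, fell from 292 ± 11.0 to 57.9 ± 2.51 CPM, and ALDH18A1, which makes the precursor of ornithine and proline from glutamate, from 163 ± 0.817 to 52.7 ± 1.78 CPM. SLC25A15, the mitochondrial ornithine carrier, and AGMAT, an agmatinase-family enzyme, fell with log2 fold changes of -1.53 and -2.14. SLC7A2, another cationic amino acid transporter, rose by 0.23 (adjusted p = 0.00432), a call lost without vehicle library B (adjusted p = 0.078). ASS1, ASL, OAT and ARG2 were not called, but these results depended on the setting. With GC content and length trends removed, ASS1 (-0.56, adjusted p = 1.43e-06) and ASL (-0.39, adjusted p = 0.00189) were called lower. ASL was called higher with upper-quartile factors (0.27, adjusted p = 0.02), total counts and the filter of 1 CPM. In the fit of all 6 columns, which counts the summed columns as libraries, ASL was called higher and ASS1, OAT and ARG2 lower. ARG2 was also called lower without DB2115 library A, where the remaining DB2115 library had 1 count.

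Methylthioadenosine salvage is the route that recycles the by-product of spermidine and spermine synthesis. Of 10 genes of the methionine cycle and of this salvage, 9 were tested. Of these 7 fell and 1 rose, beside 31.3% of all genes tested called lower and 32.7% called higher. MTR, methionine synthase (-1.20), and ENOPH1, a salvage enzyme (-1.36), had the smallest adjusted p. MRI1, another salvage enzyme, was called higher (0.15, adjusted p = 0.0465), a direction that turned to -0.23 (adjusted p = 0.00304) with GC content and length trends removed. Leaving out any 1 library ended the call of MRI1, and leaving out any but DB2115 library B ended that of APIP, another salvage enzyme (-0.32, adjusted p = 0.0298).

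Of the 4 hypusine genes, EIF5A, DHPS and DOHH fell and EIF5A2 rose, beside 31.3% of all genes tested called lower and 32.7% higher. EIF5A, the protein that carries hypusine, went from 1009 ± 6.49 to 323 ± 9.89 CPM (log2 fold change -1.64, adjusted p = 2.28e-10, edgeR), DHPS, deoxyhypusine synthase, which takes its group from spermidine, had -0.48, and DOHH, the hydroxylase that completes the residue, -1.05 (-1.77 with GC content and length trends removed). EIF5A2, a second form at about 1 CPM in vehicle, rose by 0.98 (adjusted p = 0.0121), but was not called once vehicle library B (adjusted p = 0.0892) or DB2115 library A (adjusted p = 0.132) was left out.

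Of 10 further transporters, 4 were tested. SLC3A2, the heavy chain of several amino acid exchangers, also linked to polyamine export, fell from 270 ± 7.69 to 92.0 ± 3.78 CPM, and SLC47A1, an organic cation exporter, fell with a log2 fold change of -1.11. SLC12A8 rose by 3.56 from a very low level, 0.228 and 0.097 CPM, to 1.61 and 2.17 CPM, and SLC22A16 was not called. The log2 fold change of SLC12A8 was 4.24 without vehicle library A and 3.02 without vehicle library B. The other P5B-type ATPases, ATP13A4 and ATP13A5, had at most 2 counts in a library.

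**Figure D5:**
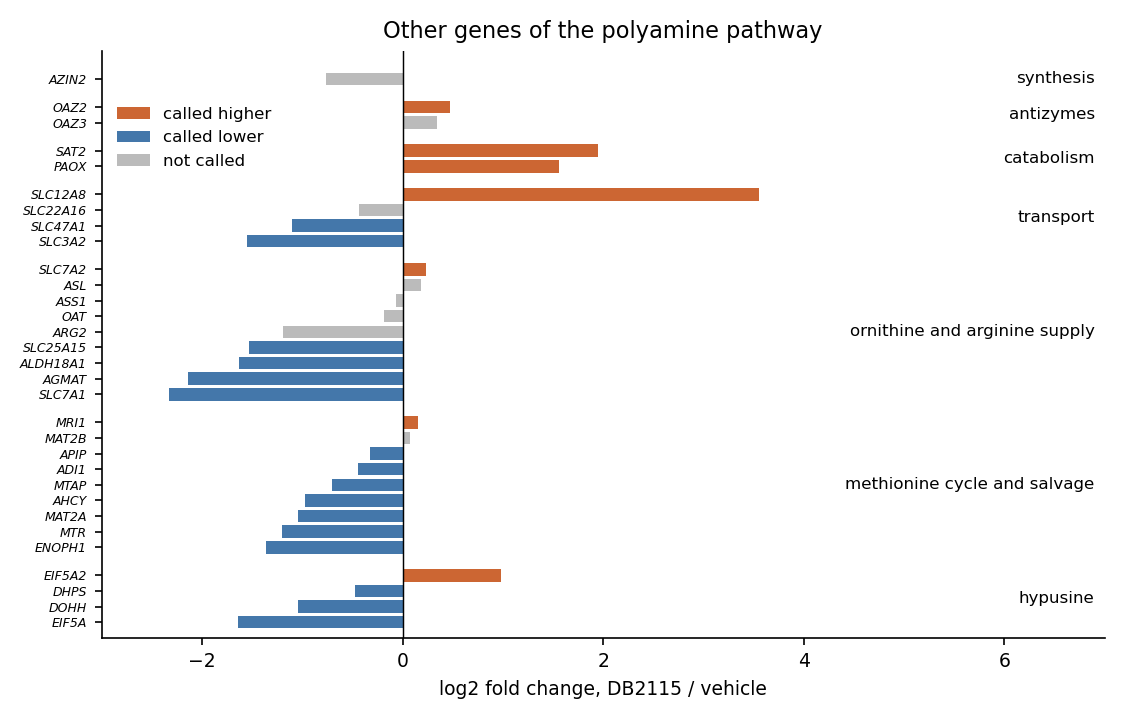
Log2 fold change of DB2115 over vehicle for the 31 tested genes of the wider polyamine pathway, grouped by role, with genes called higher in orange, called lower in blue and not called in grey. The bars of ornithine supply, methionine cycle and hypusine genes point mostly to the left and those of catabolism to the right.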

How the data were processed

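RNA sequencing libraries of MOLM-13 cells were compared between DB2115 and vehicle. The authors deposited a table of raw read counts per gene; per the submitters' processing notes, FastQC, STAR and DESeq2 were used with build hg38. Tool versions, the annotation, the counter and its strand setting are not given here. Gene identifiers were matched to symbols without their version (57799 of 58381 matched), and coordinates and exon lengths came from GENCODE release 29 on GRCh38.

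Counts of the 4 libraries were filtered with filterByExpr (minimum count 10, minimum total 15), scaled by TMM and tested with edgeR 4.0.16 (glmQLFit and glmQLFTest, R 4.3.3) in a model of treatment alone, with Benjamini-Hochberg adjustment over 17219 genes. The common biological coefficient of variation was 6.33%. Standard errors are the log2 fold change divided by the square root of F. The fit was tested on simulated counts. The design assumed up to 3 libraries per group, and the summed column was left out. The members and gene lists were chosen with earlier results of these data known. Named pathway genes were up to 8 per direction with the smallest adjusted p and a mean of at least 1 CPM, paralogues of members, and EIF5A, DHPS and DOHH; others are named as examples chosen after their values were seen. Ratios were tested by exact permutation in scipy 1.17.1. The 17 alternative settings covered scaling, filters, threshold, DESeq2 1.42.0, limma-voom (limma 3.58.1), all 6 columns, each library left out (the lone library of a group is then assumed to vary like those of the other group), a block on the column letter, mitochondrial genes, and offsets for transcript GC content and length. The 95% intervals of fold changes came from the edgeR fit of the 4 libraries.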

Additional observations from a re-analysis of the deposited data

How the results depend on the processing

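Over the 17 alternatives, ODC1, AMD1, SRM, OAZ1, SAT1, SMOX, ATP13A2 and ATP13A3 kept their direction and their call. SMS lost its call in 10 of them and AZIN1 gained one in 3. Leaving out 1 library gave log2 fold changes from -2.79 to -2.48 for SRM and from 3.02 to 3.14 for SAT1. The median of the 10 genes was -0.16, and -0.0687 with upper-quartile factors and with total counts, -0.0814 under a filter of 1 CPM in 3 libraries, -0.0525 with GC content and length offsets and -0.0521 with these and the replicate block. Those offsets moved the median of all genes from 0.03 to -0.17 and the split of calls from 5634 higher and 5396 lower to 4435 higher and 7020 lower. With the offsets SRM was at -3.21, and MRI1 and ASL reversed, to -0.23 and -0.39, also with the replicate block. The cause was not tested. Other pathway genes called higher numbered 4 to 6, against 7, when 1 library was left out, with 4 without vehicle library B. Ratios per kb of exon have the same differences by construction.

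The labels number replicates in both groups, but the columns carry only letters. The A minus B differences of the groups had a correlation of 0.03 across genes, and a replicate block on the letter gave 5810 genes higher and 5614 lower and changed no call on the 10 genes (SMS adjusted p = 0.014). Depth was not a limit for the 10 genes, the lowest count being 258 (SMOX, vehicle library B).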

Other observations

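Several genes of the wider pathway were too low to test. SLC18B1, a vesicular polyamine transporter, had 0 and 2 counts in the vehicle libraries and 6 and 9 with DB2115. ARG1, liver arginase, had 3 and 4 counts in vehicle and 6 and 8 with DB2115. SLC22A3, an organic cation transporter, had at most 5 counts in a library, and OTC, MAT1A and SLC22A2 had none. Libraries of the same group differed for 2 low genes: AZIN2 had 7 counts in vehicle library A and 80 in library B, and ARG2, mitochondrial arginase, had 13 counts in DB2115 library A and 1 in library B.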
